A study of Homo sapiens with 6 samples.

Results

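The 49 genes described here encode factors that build ribosomes in the nucleolus. They were chosen by name, NOLC1 and 48 others, out of 58302 gene entries in the count table. All 49 were found by symbol and all 49 were among the 15063 genes with enough reads to be tested. Expression was measured by RNA sequencing in Ker-CT, human skin keratinocytes kept in culture by added telomerase and CDK4. The tested libraries, 3 labelled siKMT2C, came from cells given siRNA against KMT2C, a histone H3 lysine 4 methyltransferase, and 3 labelled siNC came from cells given a negative-control siRNA. The cells of all 6 libraries also received M5 for 24 h, a mixture of the cytokines oncostatin M, TNF-α, IL-22, IL-17A and IL-1α, with 10 ng/ml of each, that is used to model psoriasis, and no unstimulated cells are analysed here. The series title asks what KMT2C depletion does to gene expression in such cells. The cells are a single line, and the labels do not say whether the replicates were separate cultures, so p-values measure only the spread between these libraries, which may be technical.

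Ribosome production starts with RNA polymerase I, which copies the rRNA genes into a long precursor inside the nucleolus. Small nucleolar ribonucleoproteins (snoRNPs) guide its chemical modification, box C/D particles for methylation and box H/ACA particles for pseudouridine, while a large assembly called the small subunit processome folds and cuts it. Separate sets of helicases, GTPases and scaffold proteins then mature the large and the small subunit and pass them to the cytoplasm. NOLC1, also called Nopp140, is a heavily phosphorylated protein that shuttles between nucleolus and Cajal bodies, binds both kinds of snoRNP and is related in build to TCOF1 (treacle), a cofactor of RNA polymerase I. Many genes of this programme are textbook targets of the transcription factor MYC, and proliferating basal keratinocytes express them strongly.

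The siKMT2C libraries held 15921870 to 16414777 counts and the siNC libraries 14409277 to 17539519. KMT2C was at 32.0, 30.8 and 27.3 CPM (read counts relative to the scaled library total) in siKMT2C, against 87.9, 82.0 and 72.6 CPM in siNC. It fell by 1.43 on the log2 scale (SE 0.14, edgeR adjusted p = 0.00786). Keratinocyte markers were abundant, with 10 genes summing to 14544 to 20275 CPM in siKMT2C and 14164 to 22628 CPM in siNC. Markers of other skin cells were low, and the part of their differences in the results was not tested. The 7 fibroblast markers summed to 13.5 to 17.5 CPM in siKMT2C and 20.7 to 31.1 CPM in siNC, mostly COL1A1, with PDGFRA at 3 counts over all libraries. The 6 melanocyte markers summed to 2.03 to 3.06 and 2.31 to 3.38 CPM with TYR, DCT and SOX10 at 0, and the 6 macrophage and Langerhans markers to 0.183 to 0.321 and 1.14 to 1.38 CPM with CD207, CD1A and AIF1 at 0. All 5 T cell markers had no count, and the 4 endothelial markers reached at most 0.0642 and 0.208 CPM. Mitochondrial transcripts took 5.02% to 6.43% of counts in siKMT2C and 4.83% to 6.65% in siNC.

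NOLC1 (ENSG00000166197) lies on chromosome 10, 102152176 to 102163871 on the plus strand in GRCh38, with no other gene annotated over it. It stood at 175, 157 and 191 CPM in siKMT2C, against 43.8, 52.6 and 52.9 CPM in siNC. The lowest siKMT2C library was thus far above the highest siNC library, and the mean was 174 ± 17.2 CPM in siKMT2C and 49.7 ± 5.18 CPM in siNC (SD, n = 3 each). NOLC1 rose 3.5-fold, a log2 fold change of 1.81 (SE 0.14, edgeR adjusted p = 0.00389). The exact two-sided permutation test gave p = 0.1, the smallest that 3 libraries against 3 allow. Among all genes tested, 24 (0.159%) had a larger log2 fold change, and 10 of the genes that rose did. Its rise kept its direction in all 16 alternative settings, with log2 fold changes from 1.72 to 1.88, and the edgeR or other adjusted p ran from 1.78e-23 to 0.0471. NOLC1 has an annotated processed pseudogene, NOLC1P1, which had 0 counts in the 6 libraries. In bulk RNA, fewer cells of a kind and less RNA per cell cannot be told apart.

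The NOLC1 transcript carries the 7-base word TCGGAGA, which an earlier scan of these same libraries had picked out among genes that rose, so its counts are descriptions only. The word is shown because it lies in the last exon of NOLC1, exon 13 of 13, in the 3′ UTR 35 bases past the stop codon (chr10:102162304-102162310, GRCh38, plus strand, GENCODE 29 transcript). The site reads 5′ to 3′, with the word in capitals and 11 bases on either side:
NOLC1: aagggtgatgaTCGGAGActacttacttt
Of the 49 genes, 11 (22.4%) carry the word in the coding sequence or 3′ UTR, against 9.69% of 12525 protein-coding genes tested 30.2% of the 96 protein-coding genes that rose and 6.9% of the 116 that fell. TCOF1 carries it 3 times, POLR1A and POLR1B 2 times each, and HEATR1, NOP14, UTP20, UBTF, PPAN, DDX27 and NOP10 carry a single copy. The members with the word had a median log2 fold change of 0.25 and those without it 0.28, while over the protein-coding genes tested the medians were 0.05 with and -0.01 without it. The siRNA sequences are not used here.

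The other 48 genes were also higher in siKMT2C on average, by far less. In siKMT2C replicates 1 to 3 the mean log2 CPM of the 48 was 6.24, 6.28 and 6.32, against 5.97, 5.99 and 6.02 in siNC. The groups did not overlap, and the difference of 0.29 compares with SDs of 0.0451 in siKMT2C and 0.0252 in siNC. NOLC1 lay above the mean of the 48 by 1.21, 1.01 and 1.26 log2 units in siKMT2C, and below it in siNC, at -0.51, -0.27 and -0.29. Its distance from the others therefore shifted by 1.52 log2 units. It averaged 1.16 ± 0.132 in siKMT2C and -0.357 ± 0.133 in siNC (SD, n = 3 each). This is a description, since NOLC1 and the others were chosen with earlier results known, and it carries no test. Together the 48 genes summed to 5617.7, 5928.1 and 5397.4 CPM in siKMT2C, against 4915.1, 4792.9 and 4395.5 CPM in siNC.

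**Figure D1:**
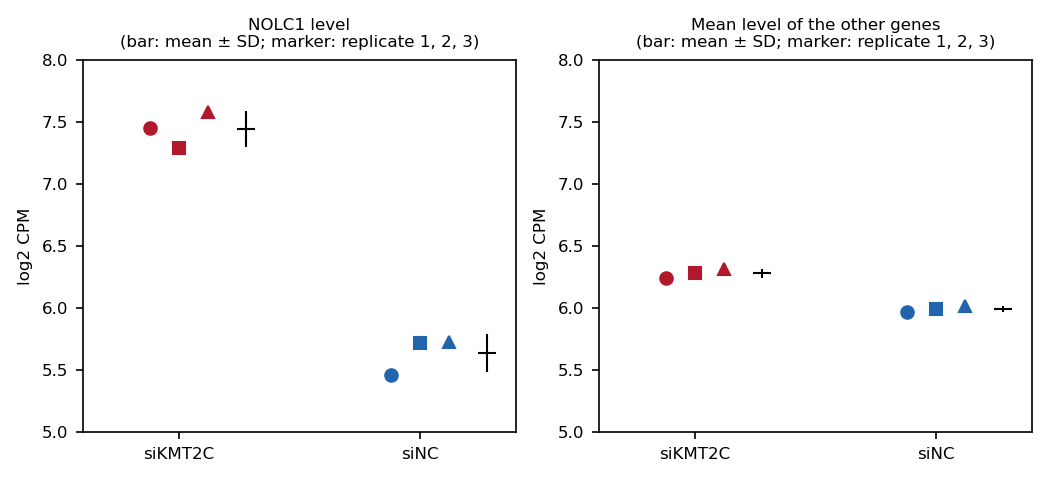
The left panel plots NOLC1 and the right panel the mean of the other 48 genes, both as log2 CPM on the same axis, with siKMT2C libraries in red and siNC libraries in blue. NOLC1 sat at 7.29 to 7.58 in siKMT2C and 5.46 to 5.73 in siNC, while the other 48 sat at 6.24 to 6.32 and 5.97 to 6.02.

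Per kilobase of the longest coding transcript, NOLC1 moved up the order of the 49. It held 43.9 CPM per kilobase in siKMT2C, the 11th highest level, and 12.5 in siNC, the 36th highest. In siKMT2C it stood between NOP56 (47.2 CPM per kilobase) and DDX56 (43.2), and its libraries, at 44.0, 39.5 and 48.2, overlapped with theirs. In siNC it stood between TCOF1 and DKC1, again with overlapping libraries. The most abundant of the 49 was NPM1, the histone and ribosomal protein chaperone nucleophosmin, at 765 CPM per kilobase in siKMT2C and 608 in siNC. NOP10 (172 and 130), NHP2 (161 and 131), NCL (157 and 115) and FBL (119 and 103) followed in siKMT2C and siNC. The libraries of NOP10, NHP2 and NCL overlapped within each group, so their order among themselves is not resolved. In siNC the FBL libraries, at 88.8, 97.6 and 123 CPM per kilobase, overlapped with theirs too.

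Of the 49 genes, 44 had a positive log2 fold change and 5 a negative one, against 49.7% positive over all genes tested. The median was 0.28, a 1.21-fold difference, against -0.003 over all genes. By the edgeR test adjusted over all genes, 1 of 49 changed (2.04%, against 1.50% of all genes tested), namely NOLC1. That is 1 that rose, against a background of 0.690%, and 0 that fell, against 0.810%. The change of NOLC1 was known when the members were chosen, so this call is not independent of the choice. NOLC1 is also included in each count of higher or risen members that follows. At an unadjusted edgeR p under 0.05, 14 members (28.6%) were higher in siKMT2C, against 7.91% of all genes, and 1 (2.04%) was lower, against 9.01%. In 18 members (36.7%) every siKMT2C library was above every siNC library, against 11.8% of all genes, and in 0 members was every siKMT2C library lower, against 12.3%. DESeq2 called 7 members as risen (14.3%, against 2.68% of all genes), and edgeR with a correction for GC content and length called 10 (20.4%, against 5.24%). Without siKMT2C replicate 1, edgeR called 2 members as risen (4.08%), against 0.0518% of all genes. Without siNC replicate 3 it called 5 as risen (10.2%, against 1.71% of all genes) and DDX21 as fallen (2.04%, against 2.33%). Without replicate 3 of both groups 43 members were positive, against 49.7% of all genes, 5 rose (10.2%, against 1.92%) and 1 fell (2.04%, against 2.36%).

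**Figure D2:**
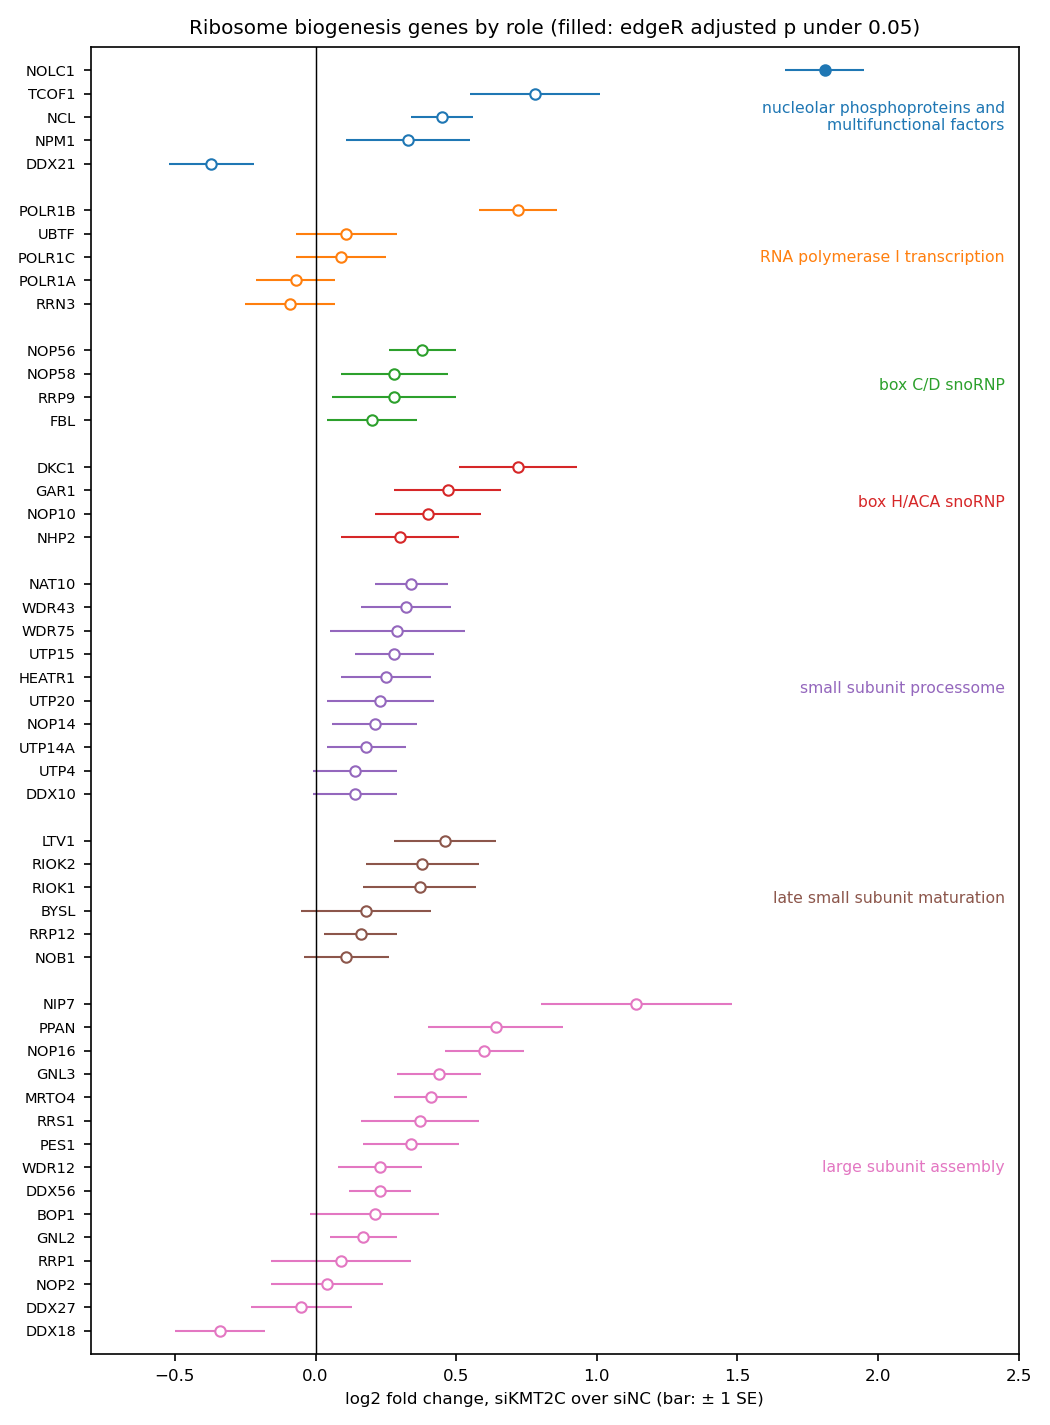
Each point is the log2 fold change of a gene, siKMT2C over siNC, with a bar of 1 SE to either side, grouped by role; filled points passed the edgeR test. NOLC1 at 1.81 is the filled point, the next highest is NIP7 at 1.14, and the lowest is DDX21 at -0.37.

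Among the nucleolar phosphoproteins and factors with several roles, 4 of 5 were positive, with a median log2 fold change of 0.45. NCL, or nucleolin, which binds rRNA precursors and chromatin, had 648, 642 and 608 CPM in siKMT2C, against 459, 488 and 444 CPM in siNC. The groups did not overlap, but the difference (log2 fold change 0.45, SE 0.11, edgeR adjusted p = 0.0848) missed the threshold. NCL passed in 4 of the 16 alternatives. TCOF1 had 99.3, 91.7 and 139 CPM in siKMT2C, against 54.1, 54.9 and 83.6 CPM in siNC (0.78, SE 0.23, edgeR adjusted p = 0.143). Its replicate 3 was the highest of each group, and the lowest siKMT2C library exceeded the highest siNC library by a small margin. TCOF1 was called as risen in some alternatives, among them DESeq2 and the GC and length correction. NPM1 gave 0.33 (SE 0.22), with overlapping groups, and 49 annotated NPM1 pseudogenes that held 20487 counts leave its level uncertain. DDX21, an RNA helicase that couples polymerase I transcription and rRNA processing, had 261, 277 and 258 CPM in siKMT2C, against 384, 371 and 273 CPM in siNC. Its siKMT2C libraries were close together while siNC replicate 3 lay near them and the other siNC libraries lay above (-0.37, SE 0.15, edgeR adjusted p = 0.269). Without siNC replicate 3 the log2 fold change of DDX21 was -0.52 (edgeR adjusted p = 0.0353). Leaving out any other library gave DDX21 an edgeR adjusted p from 0.439 to 0.563, and it passed in 4 of the 16 alternatives.

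**Figure D3:**
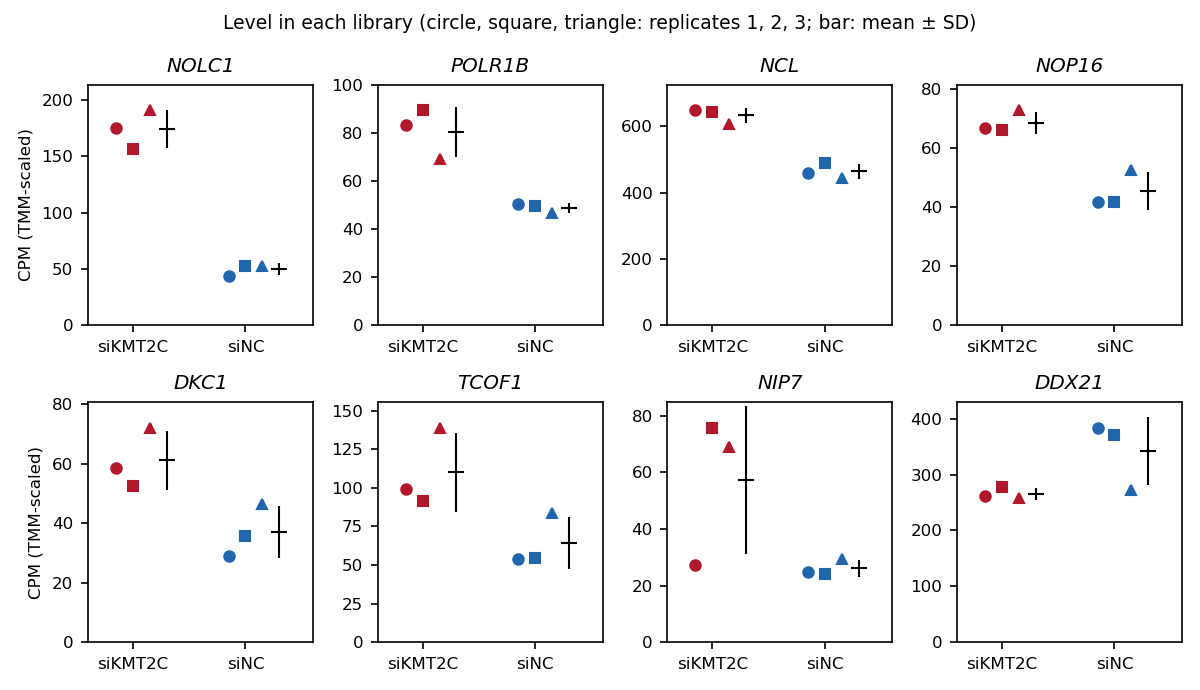
Each panel plots the CPM of a gene in the 3 siKMT2C (red) and 3 siNC (blue) libraries, from 0, with the mean and SD beside the points. NOLC1, POLR1B, NCL, NOP16, DKC1 and TCOF1 show no overlap between groups; NIP7 has 1 siKMT2C library at 27.4 CPM, within the siNC range of 24.2 to 29.5, and DDX21 is lower in siKMT2C with siNC replicate 3 at 273 CPM.

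The RNA polymerase I genes were mixed, with 3 of 5 positive and a median of 0.09. POLR1B, the second largest subunit of the enzyme, had 83.3, 89.6 and 69.1 CPM in siKMT2C, against 50.7, 49.5 and 46.7 CPM in siNC. Its groups did not overlap, and it lay just short of the threshold (0.72, SE 0.14, edgeR adjusted p = 0.0549). It passed in several alternatives, for example with DESeq2 (adjusted p = 0.00162) and with no filter (edgeR adjusted p = 0.0425), while over all alternatives its adjusted p ran from 0.00162 to 0.248. POLR1C, a subunit shared with RNA polymerase III, had 20.2, 22.0 and 27.7 CPM in siKMT2C, against 22.0, 20.9 and 22.5 CPM in siNC (0.09, SE 0.16, edgeR adjusted p = 0.824). Its groups overlapped and its sign differed under some settings, and 5 other annotated genes overlap it. The largest subunit POLR1A (-0.07), the initiation factor RRN3 (-0.09) and the upstream binding factor UBTF (0.11) also overlapped between groups and also changed sign under some settings.

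All 8 snoRNP proteins were positive, and none passed the edgeR test in the reported fit. By unadjusted edgeR p, NOP56, DKC1 and GAR1 were under 0.05. Over the 16 alternatives DKC1 passed in 5 and NOP56 in 1, and the other snoRNP proteins passed in none. Of the box C/D proteins, the core scaffold NOP56 had 112, 115 and 113 CPM in siKMT2C, against 82.3, 93.0 and 85.7 CPM in siNC (0.38, SE 0.12, edgeR adjusted p = 0.153). Its partner NOP58 had 123, 144 and 106 CPM in siKMT2C, against 124, 100 and 82.5 CPM in siNC (0.28, SE 0.19, edgeR adjusted p = 0.505). NOP56 was tight within groups and did not overlap, while NOP58 overlapped. The methyltransferase FBL (0.20) and the U3 particle protein RRP9 (0.28) overlapped as well.

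The box H/ACA proteins had the highest median of the role groups with no called gene, 0.44. The pseudouridine synthase DKC1, the gene of X-linked dyskeratosis congenita, had 58.6, 52.5 and 72.1 CPM in siKMT2C, against 29.1, 35.6 and 46.5 CPM in siNC (0.72, SE 0.21, edgeR adjusted p = 0.135). Its partner GAR1 had 28.7, 29.2 and 37.7 CPM in siKMT2C, against 18.8, 22.8 and 27.5 CPM in siNC (0.47, SE 0.19, edgeR adjusted p = 0.265). Neither gene overlapped between groups, and in both the third replicate was the highest of its group. NOP10 (0.40) and NHP2 (0.30), the small core proteins, also had their highest value of each group in replicate 3, with overlapping groups.

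All 10 small subunit processome genes were positive, in a narrow range from 0.14 to 0.34. The cytidine acetyltransferase NAT10 had 80.2, 79.1 and 86.1 CPM in siKMT2C, against 59.2, 65.0 and 69.9 CPM in siNC (0.34, SE 0.13, edgeR adjusted p = 0.226). WDR43, a component that acts with polymerase I, had 125, 135 and 121 CPM in siKMT2C, against 113, 112 and 80.8 CPM in siNC (0.32, SE 0.16, edgeR adjusted p = 0.356). Neither overlapped between groups, and NAT10 passed in 2 of the 16 alternatives and WDR43 in none. UTP15 (0.28) did not overlap either, and the gene ANKRA2 lies over part of it on the opposite strand. The scaffold proteins HEATR1 (0.25), WDR75 (0.29), UTP20 (0.23), NOP14 (0.21), UTP14A (0.18), UTP4 (0.14) and the helicase DDX10 (0.14) overlapped between groups.

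All 6 genes of late small subunit maturation were positive, with a median of 0.27. LTV1, an export and assembly factor of the pre-small subunit, had 44.8, 45.5 and 36.5 CPM in siKMT2C, against 35.6, 32.0 and 24.5 CPM in siNC (0.46, SE 0.18, edgeR adjusted p = 0.240). The kinase RIOK2 had 58.5, 67.2 and 50.6 CPM in siKMT2C, against 54.5, 46.6 and 34.4 CPM in siNC (0.38, SE 0.20, edgeR adjusted p = 0.386). LTV1 shares its span with 3 other annotated genes, among them protein-coding genes on the same strand. It separated the groups by less than 1 CPM, and RIOK2 overlapped between groups. In both genes the third replicate was the lowest of its group, the reverse of the order in DKC1 and GAR1. RIOK1 (0.37), BYSL (0.18), RRP12 (0.16) and the endonuclease NOB1 (0.11) overlapped.

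Of the 15 large subunit assembly genes, 13 were positive, with a median of 0.23 and a range from -0.34 to 1.14. NOP16 had 66.8, 66.3 and 72.9 CPM in siKMT2C, against 41.8, 41.7 and 52.8 CPM in siNC, with no overlap (0.60, SE 0.14, edgeR adjusted p = 0.0924). NOP16 passed in 6 of the 16 alternatives. The genes HIGD2A and ARL10 lie over part of it on the opposite strand. NIP7 had 27.4, 75.8 and 68.9 CPM in siKMT2C, against 24.7, 24.2 and 29.5 CPM in siNC (1.14, SE 0.34, edgeR adjusted p = 0.150). Replicates 2 and 3 of siKMT2C were well above all other libraries, and siKMT2C replicate 1 lay among the siNC libraries. Without siKMT2C replicate 1 the log2 fold change of NIP7 was 1.47 (edgeR adjusted p = 0.0492). Leaving out any other library gave NIP7 an edgeR adjusted p from 0.225 to 0.363, and it passed in 2 of the 16 alternatives. The gene overlaps COG8 and 2 more genes on the opposite strand, and the strand setting of the counting is not known here. PPAN had 31.7, 29.2 and 44.0 CPM in siKMT2C, against 28.5, 22.4 and 16.5 CPM in siNC (0.64, SE 0.24, edgeR adjusted p = 0.230), and it overlaps the read-through gene PPAN-P2RY11.

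Other large subunit genes that did not overlap were GNL3 (0.44), known as nucleostemin, MRTO4 (0.41), WDR12 (0.23), DDX56 (0.23) and GNL2 (0.17). Annotated genes on the opposite strand lie over part of each of these except DDX56. WDR12 works in a trimer with PES1 (0.34) and BOP1 (0.21), whose groups did overlap. WDR12, PES1 and BOP1 were called as risen with the GC and length correction, and MRTO4 with the replicate block added to it. RRS1 (0.37), RRP1 (0.09), the rRNA methyltransferase NOP2 (0.04) and the helicase DDX27 (-0.05) overlapped too, and RRP1, NOP2 and DDX27 changed sign under some settings. The helicase DDX18 had 93.1, 105 and 92.6 CPM in siKMT2C, against 143, 125 and 101 CPM in siNC (-0.34, SE 0.16, edgeR adjusted p = 0.325). Like DDX21, it had siNC replicate 3 nearest to the siKMT2C libraries. DDX18 was called as fallen with the GC and length correction, alone and with the replicate block.

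The libraries had an order of their own that crossed the groups. In 44 of 49 genes the third replicate deviated from the mean of replicates 1 and 2 in the same direction in siKMT2C and in siNC (89.8%, against 73.0% of 15022 genes tested). These deviations ran with the GC content of the transcript, with r = 0.66 in siKMT2C and r = 0.74 in siNC across the 49 genes, and r = 0.37 and r = 0.61 across 15022 genes tested. The points share libraries and the correlations are descriptions. The GC content of the 49 ran from 36.5% to 65.2% with a median of 48.0%, against 48.3% over all genes tested, and their log2 fold change had a correlation of 0.04 with it. The part of GC content in any result here was not tested beyond the correction named above.

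**Figure D4:**
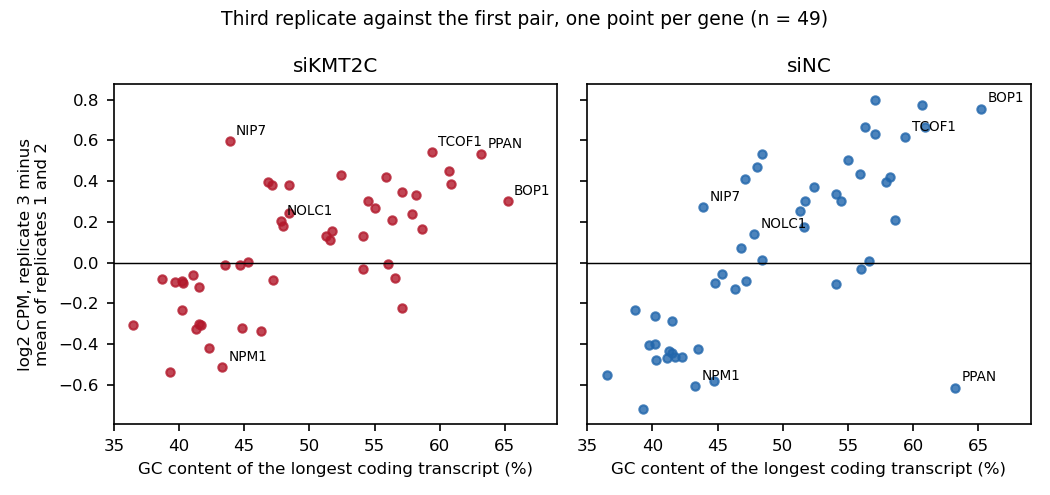
Each point is a gene (49 per panel), with the GC content of its longest coding transcript in percent on the x axis and, on the y axis, log2 CPM of replicate 3 minus the mean of replicates 1 and 2 in siKMT2C (left) and siNC (right). BOP1 and TCOF1, of high GC content, lie above 0 and WDR75, of low GC content, below 0 in both groups (r = 0.66 and r = 0.74). PPAN in siNC and BYSL in siKMT2C, of high GC content, lie below 0.

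**Figure D5:**
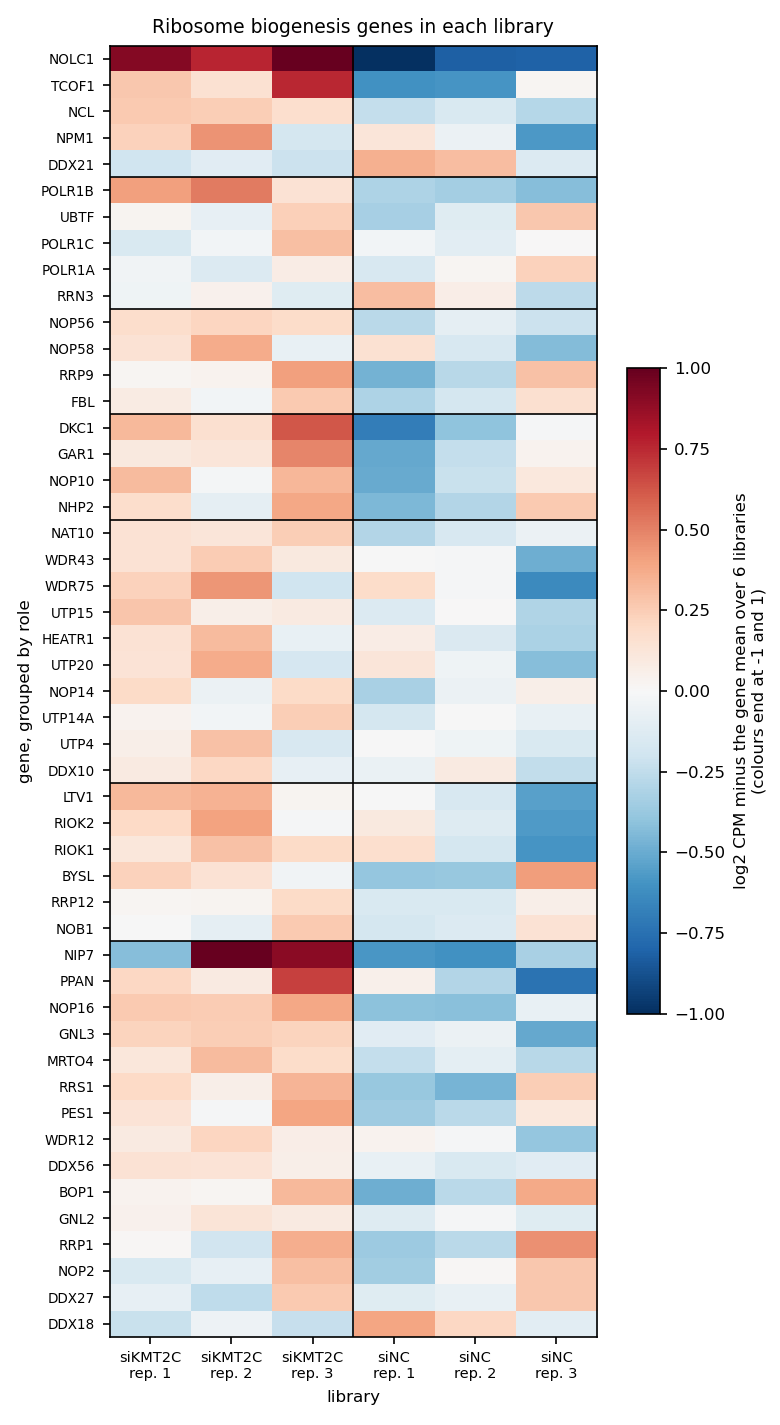
Each row is a gene and each column a library, siKMT2C to the left of siNC, coloured by log2 CPM minus the mean of that gene over the 6 libraries, with lines between role groups. Most rows are redder in siKMT2C, NOLC1 most of all, and siNC replicate 3 differs from the other siNC libraries in both directions.

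Promoters were compared because 44 of the 49 genes differ in the same direction. Sequences from RefSeq (GRCh38.p14), 250 bases before to 50 after each annotated start, covered 42 of the 49. NOLC1, TCOF1, NOP58, RRP12, BOP1, RRS1 and DDX18 had no entry. The E-box CACGTG, which reads the same on both strands and is the textbook site of MYC and related factors, was present in 18 of the 42 (42.9%). It was present in 12.6% of 10709 tested genes with a promoter and in 7.26% of all 35116 promoters. A gene was counted when any of its annotated starts held the word. The share of all promoters counts each start singly and is not a like measure. The word CCGGAAG, on either strand, part of the textbook site of ETS factors, was present in 16 of the 42 (38.1%), in 22.6% of the tested genes and in 10.3% of all promoters. The letters of the 2 words cannot overlap. Fold changes of members with and without a word were close. Members with CACGTG had a median log2 fold change of 0.25 and 17 of 18 were positive, while the 24 without had a median of 0.29 and 21 were positive. For CCGGAAG the median was 0.32 in the 16 with the word, 13 of them positive, and 0.27 in the 26 without, 25 of them positive.

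The promoters of 5 genes are printed to show the words in genes that were higher, in DDX21, which was lower, and in NCL, which holds neither. Capitals mark CACGTG, or CCGGAAG on either strand, and each runs 5′ to 3′ on the strand of its gene. The windows are chr10:68956397-68956696 (DDX21, plus), chr4:109815512-109815811 (GAR1, plus), chr11:34105379-34105678 (NAT10, plus), chr2:112542215-112542514 (POLR1B, plus) and chr2:231464435-231464734 (NCL, minus). DDX21, GAR1 and POLR1B each have a second annotated start, not printed, which holds 1 CCGGAAG.
DDX21: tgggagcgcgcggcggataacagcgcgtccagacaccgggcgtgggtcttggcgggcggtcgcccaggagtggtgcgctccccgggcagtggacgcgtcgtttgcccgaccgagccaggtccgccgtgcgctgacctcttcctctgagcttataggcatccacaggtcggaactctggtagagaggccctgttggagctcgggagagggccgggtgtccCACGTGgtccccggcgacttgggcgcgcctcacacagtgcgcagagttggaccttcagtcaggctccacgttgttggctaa
GAR1: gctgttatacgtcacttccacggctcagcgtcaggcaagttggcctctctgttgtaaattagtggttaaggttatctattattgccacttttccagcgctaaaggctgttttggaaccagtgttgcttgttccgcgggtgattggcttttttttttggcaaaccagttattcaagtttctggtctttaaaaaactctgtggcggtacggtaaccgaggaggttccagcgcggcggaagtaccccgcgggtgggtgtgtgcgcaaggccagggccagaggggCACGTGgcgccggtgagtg
NAT10: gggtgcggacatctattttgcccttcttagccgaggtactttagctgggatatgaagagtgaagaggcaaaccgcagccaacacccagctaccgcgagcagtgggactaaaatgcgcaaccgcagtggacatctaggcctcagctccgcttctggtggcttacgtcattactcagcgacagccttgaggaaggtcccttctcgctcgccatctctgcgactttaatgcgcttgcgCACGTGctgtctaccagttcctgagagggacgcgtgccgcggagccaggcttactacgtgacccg
POLR1B: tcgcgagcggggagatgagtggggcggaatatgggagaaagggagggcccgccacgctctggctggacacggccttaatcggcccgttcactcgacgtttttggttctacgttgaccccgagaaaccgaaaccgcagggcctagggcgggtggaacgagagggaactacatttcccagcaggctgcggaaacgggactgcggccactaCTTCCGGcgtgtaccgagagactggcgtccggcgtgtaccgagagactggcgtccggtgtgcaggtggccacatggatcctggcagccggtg
NCL: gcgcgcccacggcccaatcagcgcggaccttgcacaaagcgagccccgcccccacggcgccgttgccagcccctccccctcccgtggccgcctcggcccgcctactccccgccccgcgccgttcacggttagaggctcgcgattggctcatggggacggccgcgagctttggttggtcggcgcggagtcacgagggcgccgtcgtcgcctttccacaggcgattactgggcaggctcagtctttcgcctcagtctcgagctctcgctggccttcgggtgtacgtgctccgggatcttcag
DDX21 and GAR1 each hold a single E-box, and their log2 fold changes were -0.37 and 0.47. POLR1B holds the ETS-type word and no E-box, and NCL, with no match, had a log2 fold change of 0.45. A match is a string of letters in the reference and not a measured binding site.

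Further ribosome biogenesis genes outside the 49 had list medians between 0.09 and 0.20 and no called gene (edgeR). Counts at an unadjusted p under 0.05 follow, to be read against 7.91% higher and 9.01% lower over all genes tested. Of 18 other RNA polymerase I factors, 12 were positive with a median of 0.20 and a range from -0.42 to 0.89, and 2 (11.1%) were higher at unadjusted p under 0.05. The selectivity factor subunit TAF1A had 17.8, 19.3 and 14.5 CPM in siKMT2C, against 11.2, 7.75 and 8.84 CPM in siNC (0.89, SE 0.20, edgeR adjusted p = 0.0763). TAF1D (0.49) and the subunit POLR1G (0.49) followed. Of 40 other small subunit factors, 30 were positive with a median of 0.16 and a range from -0.84 to 0.83, and 5 (12.5%) were higher and 2 (5.00%) lower at that p. BMS1, a GTPase of the processome, had 121, 123 and 126 CPM in siKMT2C, against 80.4, 86.2 and 76.0 CPM in siNC, with tight groups (0.61, SE 0.12, edgeR adjusted p = 0.0511). MPHOSPH10 (0.83) and the helicase DHX37 (0.79) did not overlap either.

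Of 48 other large subunit factors, 39 were positive with a median of 0.19 and a range from -0.19 to 0.66. At that p 8 (16.7%) were higher, led by URB2 (0.66, SE 0.13, edgeR adjusted p = 0.0618), the GTPase GTPBP4 (0.51) and DDX24 (0.42). Of 14 snoRNP assembly and Cajal body genes, 12 were positive with a median of 0.16 and 2 (14.3%) were higher, with ZNHIT3 (0.35), NAF1 (0.32) and RUVBL1 (0.36) foremost. Of 15 nuclear exosome genes, which trim rRNA precursors, 12 were positive with a median of 0.13 and 1 was higher (6.67%, below the share of all genes), EXOSC8 (0.36), followed by EXOSC7 (0.33) and EXOSC3 (0.36). Of 14 snoRNA host transcripts, 12 were positive with a median of 0.13 and 3 (21.4%) were higher, SNHG8 (0.48), SNHG1 (0.42) and SNHG16 (0.40). Ribosomal protein genes lay nearer 0. The large subunit had 40 of 47 positive with a median of 0.12, and the small subunit 29 of 33 with a median of 0.09. Each had 1 gene higher at unadjusted p under 0.05, 2.13% and 3.03% of the lists and so fewer than among all genes. These were RPL27 (0.30) and RPS12 (0.36), followed by RPL9 (0.29) and by RPS27A (0.28) and FAU (0.22).

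Genes that regulate or neighbour NOLC1 were looked up as well. NOLC1 is a substrate of the kinase CK2, and of 5 regulators of NOLC1 and TCOF1, 3 were positive with a median of 0.09. The catalytic subunit CSNK2A2 had 104, 100 and 98.0 CPM in siKMT2C, against 68.8, 68.1 and 68.0 CPM in siNC, with a tight spread in both groups (0.56, SE 0.11, edgeR adjusted p = 0.0597). The other catalytic subunit CSNK2A1 (0.09) and the regulatory subunit CSNK2B (-0.16) overlapped between groups. On chromosome 10 the nearest tested gene upstream of NOLC1, PPRC1, had 82.0, 73.7 and 77.0 CPM in siKMT2C, against 52.2, 59.3 and 64.4 CPM in siNC (0.40, SE 0.13, edgeR adjusted p = 0.183). The next genes on either side, LDB1 (-0.08), HPS6 (-0.13), GBF1 (0.13), NFKB2 (0.06) and PSD (0.11), overlapped between groups, and LDB1, HPS6, NFKB2 and PSD changed sign under some settings. The largest log2 fold change among these 6 neighbours was thus 0.40, against 1.81 for NOLC1.

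MYC had 15.8, 20.9 and 62.9 CPM in siKMT2C, against 9.27, 11.5 and 8.67 CPM in siNC (1.76, SE 0.49, edgeR adjusted p = 0.126). Its groups did not overlap, and siKMT2C replicate 3 held by far the most. The mean centred log2 CPM of the 48 genes was 0.10, 0.14 and 0.19 in siKMT2C, against -0.17, -0.15 and -0.12 in siNC. Within siKMT2C both MYC and this mean were lowest in replicate 1 and highest in replicate 3. Within siNC the orders differed, with MYC lowest and the mean highest in replicate 3. The summed CPM of the 48 genes was lowest in replicate 3 of both groups. The part of MYC in these values was not tested. In the MYC network 7 of 10 tested genes were positive with a median of 0.08, MXI1 (0.71) and MLX (0.31) next after MYC. The ubiquitin ligase MDM2, which ribosomal proteins of the 5S particle bind when ribosome assembly is disturbed, had 122, 135 and 115 CPM in siKMT2C, against 202, 173 and 167 CPM in siNC (-0.54, SE 0.13, edgeR adjusted p = 0.0920). Its groups did not overlap. RPL11 (0.24), a protein of that particle, overlapped between groups.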

How the data were processed

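Per the file headers, the authors deposited read counts per gene and FPKM values for 6 libraries. Per the submitters' processing notes they used CASAVA 1.8 and TopHat2 2.0.6. The notes name mouse build mm10 although the identifiers are human Ensembl ones. The counter, the annotation and a human build are not stated in the labels or headers. The deposited FPKM were checked to be the counts rescaled and were not tested.

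The deposited counts went into edgeR 4.0.16 (R 4.3.3), all genes together: filterByExpr, TMM scaling, robust quasi-likelihood F test, Benjamini-Hochberg adjustment, called under 0.05. CPM are TMM-scaled; log2 CPM add a prior count of 2. SE is the absolute log2 fold change over the root of F. Intervals from counting were not used, since the test includes counting error. The step was also run on simulated counts. These held no trend with GC content, so that run does not cover the deviations of the third replicates. Exact permutation tests used scipy 1.17.1. Symbols, coordinates, GC content and lengths come from GENCODE 29 (GRCh38), which held 99.55% of identifiers.

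Alternatives were DESeq2 1.42.0, limma-voom 3.58.1, scaling by RLE or by library size only, a minimum of 1 CPM in 3 libraries or no minimum, a replicate block, a loess correction (span 0.3) for GC content and length, both together, and leaving out each library. Leaving out replicate 3 of both groups was chosen after seeing the data.

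Members and lists were chosen with earlier results of these data known. Named in full are NOLC1, called members, the highest and lowest, and per role the 2 smallest p; TCOF1, PPAN and DDX18 were added after their values were seen. Other lists give at most 3 smallest p. Some items of these lists are not reported here.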

Additional observations from a re-analysis of the deposited data

How the results depend on the processing

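NOLC1 was called in all 16 alternatives, and its distance from the other members ranged from 1.44 to 1.59 when a library was left out. The members' median log2 fold change was 0.26 to 0.30 when a library was left out, and 42 of 49 members kept their sign in every setting. The count of changed genes was 226 in the reported fit, 864 with DESeq2, 968 with the replicate block, 1387 with the GC and length correction, 1384 with both and 648 without replicate 3 of both groups. It ran from 16 to 620 when a library was left out. Members that rose, with the share of all genes that rose, numbered 1 in the reported fit (0.690%), 2 with no filter (0.453%), 7 with DESeq2 (2.68%), 6 with the replicate block (3.03%), 10 with the GC and length correction (5.24%), 11 with it and the block (5.36%), and 5 without replicate 3 of both groups (1.92%), and ran from 1 to 5 when a library was left out. Members that fell numbered 0 in the reported fit, against 0.810% of all genes. With the GC and length correction 2 fell (4.08%), against 3.97% of all genes, and with the block added 2 fell, against 3.82%. Without replicate 3 of both groups 1 fell (2.04%), against 2.36%. When a library was left out, members that fell ran from 0 to 1. In those fits 0.0389% to 1.71% of all genes rose and 0.0646% to 2.33% fell. The cause of these shifts in the counts was not tested. POLR1C had -0.03 without replicate 3 of both groups, and from -0.05 to 0.19 when a library was left out. Of 224 values of the 14 other members named in full by the rule, 190 kept direction and side of the threshold, 32 passed it newly and 2 changed sign. TCOF1, PPAN and DDX18, added later, are not in this tally. Same-numbered replicates had correlated deviations of 0.019, 0.107 and 0.389, so the numbers were not taken as pairs; siKMT2C replicate 2 correlated best with siNC replicate 1 (0.318). With 3 libraries a group the members had a median SE of 0.16 in the reported fit, and POLR1B at 0.72 (SE 0.14) was not called. Differences near the members' median of 0.28 thus lay below what the reported fit called among members. With the GC and length correction, RIOK2 at 0.35 (edgeR adjusted p = 0.0394) and DDX21 at -0.36 (edgeR adjusted p = 0.0298) were called.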

Other observations

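Of 11 tested genes of the mTORC1 pathway, which couples growth signals to ribosome production, 8 had a negative log2 fold change and 3 (27.3%) a positive one, against 49.7% positive over all genes. Their median was -0.25 and their range -0.57 to 0.71. None was called by edgeR, and 3 (27.3%, against 9.01% of all genes) were lower at an unadjusted p under 0.05. In 5 (45.5%, against 12.3%) every siKMT2C library was lower. The list mixes the kinase MTOR itself with inhibitors of the pathway, so these counts give no direction for its activity. The 3 with the smallest p follow. TSC1, an inhibitor of the pathway, had 48.8, 48.9 and 39.2 CPM in siKMT2C, against 60.7, 73.8 and 68.2 CPM in siNC (-0.57, SE 0.15, edgeR adjusted p = 0.112). Its partner TSC2 had 50.4, 52.8 and 52.2 CPM in siKMT2C, against 60.2, 65.8 and 78.8 CPM in siNC (-0.40, SE 0.14, edgeR adjusted p = 0.207). EIF4EBP2, a translation repressor that the pathway inactivates, had 159, 155 and 135 CPM in siKMT2C, against 203, 206 and 184 CPM in siNC (-0.40, SE 0.12, edgeR adjusted p = 0.158). None of the 3 overlapped between groups.

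RPL29 departed from the other ribosomal protein genes. It had 370, 977 and 375 CPM in siKMT2C, against 981, 856 and 1002.9 CPM in siNC (-0.72, SE 0.36, edgeR adjusted p = 0.365), so siKMT2C replicate 2 lay among the siNC libraries and the other siKMT2C libraries far below. NIP7 also had a single siKMT2C library at the siNC level, but replicate 1.

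The length that each gene's FPKM and count imply equalled the sum of all its distinct annotated exons in GENCODE 29, overlapping ones counted separately, in 45 of the 49 members and in 9388 of 10237 genes with at least 100 counts in every library (91.7%, within 0.1%). It equalled the longest coding transcript in 3 members. For NOLC1 the implied length was 10058 bases against 3967 for the longest coding transcript, and for NOP56 14289 against 2400, a ratio of 5.95. Over the members the ratio had a median of 2.24. FPKM thus understate genes with many annotated exon variants relative to genes with few, and NOLC1 ranks 15th among members by FPKM in siKMT2C and 38th in siNC, against 11th and 36th per kilobase of transcript. Ratios between libraries within a gene are unaffected by the length.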
